A study of Mus musculus with 12 samples.

Results

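Diethyl maleate (DEM), an electrophile that depletes glutathione, was given to fibroblasts with and without a tethered Nrf2-MafG heterodimer, and the question here is which genes answered DEM differently in the presence of that protein. The cells were immortalized mouse embryonic fibroblasts (MEFs) in which the 3 small Maf genes are deleted, MafF-/-::MafG-/-::MafK-/- in all 4 groups, controls included. The first pair of groups, called mock here, had no T-N2G and received vehicle or 100 µM DEM for 12 h. The second pair expressed T-N2G, a single construct that links Nrf2 to MafG, and received vehicle or 100 µM DEM for 12 h. Each group had 3 libraries of polyadenylated RNA, 12 in all, and the labels do not say whether these were separate cultures, so p values measure the spread between these samples only. The labels give no promoter or clone for the T-N2G cells. For each gene the value examined was the difference of 2 DEM effects, (T-N2G DEM minus T-N2G vehicle) minus (mock DEM minus mock vehicle), on the log2 scale with the replicate number of the library as pairing. It is called the interaction. A positive value means that the DEM effect was higher in T-N2G cells and a negative value that it was lower. The table held 24318 genes, and 12469 of them had enough fragments to be tested.

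Nrf2, the product of Nfe2l2, is a transcription factor that Keap1 marks for degradation in unstressed cells. Electrophiles such as DEM modify Keap1, and Nrf2 then accumulates and binds antioxidant response elements together with a small Maf protein, which contributes part of the DNA contact. Its known target genes make and recycle glutathione, detoxify quinones and carbonyls, supply NADPH and handle heme and iron. Cells without small Maf proteins lack these partners of Nrf2.

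In T-N2G cells DEM raised many known Nrf2 target genes that it left near their vehicle level, lowered, or raised less in mock cells. The opposite pattern, a lower DEM effect in T-N2G cells, was called for 8 of 30 tested genes of the integrated stress response. In that list 1 gene was called higher. The pattern was also called for 6 of 26 immediate early genes, 4 of 18 contractile genes and 4 of 17 collagen genes. Of 20 cytosolic heat shock genes 3 were called lower (median interaction -0.05, 9 positive values). Of 21 p53 targets 3 were called lower and 1 higher (median -0.04, 8 positive values). None of these lower calls was kept in the fit without the pairing by replicate number. These lists share called members. Atf3 counts in both the stress response and the immediate early list, and Cyr61 in both the immediate early and the contractile list. The interaction was called higher for 227 genes, 1.82% of those tested, and lower for 122 genes, 0.978%, by edgeR's quasi-likelihood test with the replicate number as a block, where a call is a p under 0.05 after Benjamini-Hochberg adjustment over the 12469 genes. The calls had unequal sizes in the 2 directions. The median interaction was 0.56 over the genes called higher and -0.45 over those called lower, against 0.00 over all tested genes, and 52 genes were at least 2-fold higher (0.417%) against 3 at least 2-fold lower (0.0241%). All 349 called genes (2.8%) had the same sign of the interaction in each of the 3 replicate numbers, which the call itself favours. The gene-wise errors below are standard errors of the log2 value from the fit of all 12 libraries (n = 3 per group), and every adjusted p of a gene is from this edgeR test unless another fit is named.

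The call counts depended on the pairing. In the fit with no replicate block, which ignores the shared numbers, 52 genes were called higher (0.417%) and 2 lower (0.016%), the latter being Spry1 and Herpud1. All 54 (0.433%) were among the calls with the block. Of the genes selected by the naming rule, 67 were called higher, and 35 of these were also called without the block; of 50 called lower, 2 were. Without mock vehicle replicate 2 the counts with the block were 132 higher and 79 lower, the lowest of the fits that each left out 1 library. Replicates 1 and 2 alone, whose library codes belong to one series, gave 133 higher and 62 lower with the block, and replicate 3 by itself has 1 library per group and no test.

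**Figure D1:**
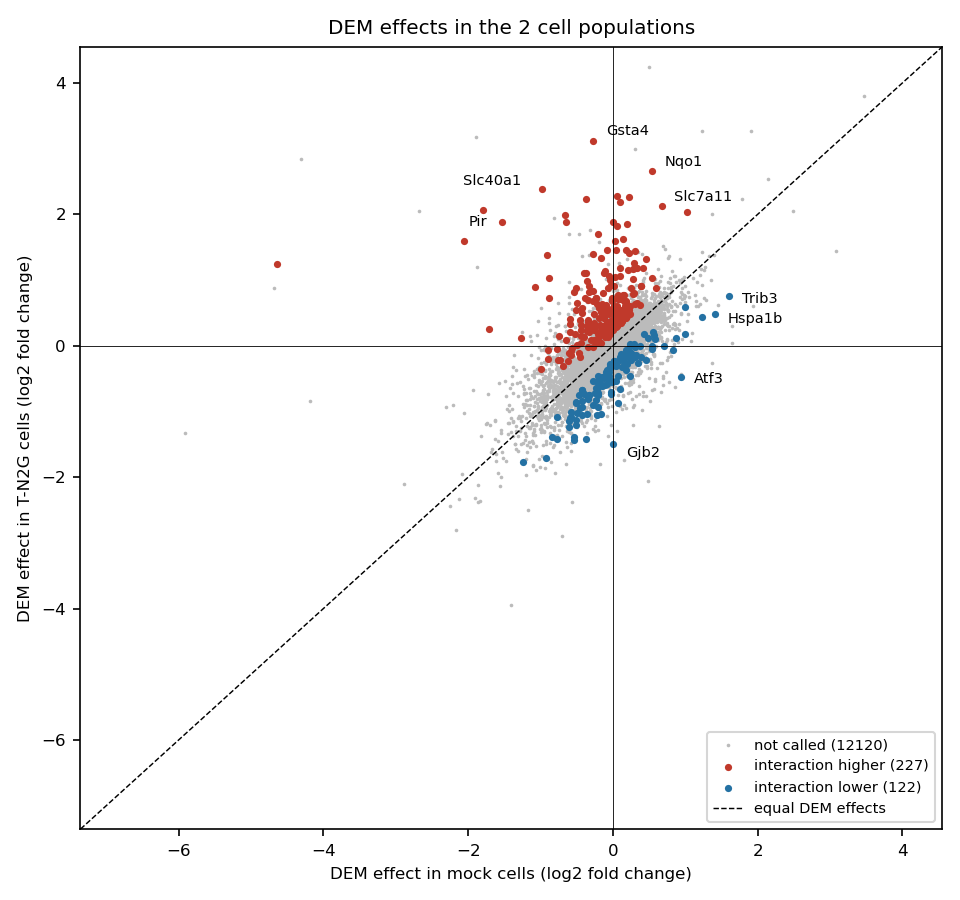
DEM effect in mock cells (x axis, log2 fold change of DEM over vehicle) against DEM effect in T-N2G cells (y axis, same unit) for the 12469 tested genes, 1 point per gene. Red points are the 227 genes called higher in the interaction, blue points the 122 called lower, and the dashed line marks equal effects. The red points reach farther from the line than the blue ones, and Gsta4, Nqo1 and Slc40a1 lie near the vertical axis or left of it with high values on the y axis.

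Library totals were 18863560 to 23095692 fragments, with replicate 3 carrying another series of library codes than replicates 1 and 2. Fibroblast markers summed to 11820 to 18965 CPM (fragments scaled to the effective library size) per library with none of the 11 at 0. Cartilage and bone markers summed to 85.1 to 121 CPM and epithelial markers to 5.46 to 26.5 CPM. Endothelial markers summed to 5.0 to 15.5 CPM and skeletal muscle markers to 1.31 to 7.78 CPM. Macrophage markers summed to at most 2.65 CPM, with Adgre1 and Tyrobp at 0 in all libraries, and 5 adipocyte markers summed to 19.2 to 30.2 CPM, of which Pparg made up 18.8 to 30.1 CPM while Adipoq, Plin1 and Lep were at 0 in all libraries. Nfe2l2 stood at 47.4, 58.5 and 53.7 CPM in mock vehicle and 59.5, 66.7 and 61.1 in mock DEM (replicates 1, 2 and 3 in this order here and below), against 612, 485 and 701 in T-N2G vehicle and 573, 454 and 641 in T-N2G DEM. Mafg stood at 0.472 to 0.932 CPM in the mock libraries and at 95.7 to 161 in the T-N2G libraries, so RNA of both genes was higher in every library labelled T-N2G than in every mock library. The fragments do not separate transgene from endogenous RNA. Maff stood at 3.08 to 5.69 CPM (65 to 123 fragments) and Mafk at 1.42 to 2.68 CPM (30 to 58 fragments) across the 12 libraries, although the labels give both as deleted, and a count per gene does not show which part of a gene the fragments came from. The interaction was called for neither Nfe2l2 (-0.34 ± 0.15, adjusted p = 0.361) nor Mafg (-0.93 ± 0.29, adjusted p = 0.111). The DEM effects of Mafg were called in opposite directions, 0.76 in mock cells (adjusted p = 0.0379), from 11, 11 and 10 fragments to 19, 19 and 19, and -0.17 in T-N2G cells (adjusted p = 0.00816), and its interaction was negative in each replicate number (-0.53, -0.59 and -0.72). The interactions of Maff (0.10 ± 0.26) and Mafk (0.22 ± 0.27) were not called either. The populations also differed in 4 Y-linked genes, whose summed level was 11.5 to 16.2 CPM in mock and 20.7 to 24.9 in T-N2G libraries, and none of the 4 had a called interaction (smallest adjusted p = 0.722). The part of this population difference in the interaction was not tested. In bulk RNA, fewer cells with a transcript and less transcript per cell cannot be told apart.

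Genes of glutathione synthesis, cystine import and reduction had 4 of 10 tested members called higher and none lower, with and without the block, while the median of the list was -0.02. Gclm, the regulatory subunit of glutamate-cysteine ligase, stood at 50.9, 48.7 and 48.7 CPM in mock vehicle and 50.5, 47.2 and 50.7 in mock DEM. In T-N2G cells it stood at 72.9, 65.1 and 83.2 CPM in vehicle and rose to 274, 224 and 319 under DEM, an interaction of 1.88 ± 0.10 (3.69-fold, adjusted p = 2.25e-09). The 6 mock libraries covered one narrow range, and the 3 T-N2G DEM libraries lay far above the other 9. Gclc, the catalytic subunit of the same enzyme, rose slightly in mock cells (log2 0.19, adjusted p = 0.0122) and 3.62-fold in T-N2G cells, from 69.4, 54.7 and 71.7 to 230, 213 and 266 CPM, with an interaction of 1.67 ± 0.07 (adjusted p = 5.24e-10). The cystine importer gene Slc7a11 rose in both populations, from 8.20, 8.17 and 6.56 to 13.6, 11.1 and 12.0 CPM in mock and from 16.1, 14.4 and 17.9 to 69.2, 54.1 and 91.6 CPM in T-N2G cells, and its interaction was 1.46 ± 0.19 (adjusted p = 0.000185). Gsr, which reduces oxidized glutathione, had an interaction of 0.94 ± 0.10 (adjusted p = 1.78e-05). The other 6 tested members were not called.

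Sequence upstream of several of these genes is shown to make the search for response elements concrete. The promoters of 9918 of the 12469 tested genes were found in RefSeq (GRCm38.p6, 250 bases before to 50 after the start), and the core of the antioxidant response element was searched as TGACNNNGC on both strands. In the windows below, written 5′ to 3′ in the direction of the gene, capitals mark the match, which reads as its reverse complement (GC first) where it lies on the other strand. The 6 genes shown are examples called higher whose match lies upstream of the start. Such a match was also found for Abcc4, Mgst1, Sod1 and Scarb2, called higher, and for Cyr61, Dusp1, Herpud1 and Slc7a1, called lower.
Pir (chrX:164269187-164269255, plus strand): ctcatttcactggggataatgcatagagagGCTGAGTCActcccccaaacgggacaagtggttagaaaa
Procr (chr2:155751033-155751101, plus strand): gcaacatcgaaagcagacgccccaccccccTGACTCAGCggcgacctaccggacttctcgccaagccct
Htatip2 (chr7:49759433-49759501, plus strand): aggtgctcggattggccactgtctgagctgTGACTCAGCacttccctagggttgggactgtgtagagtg
Gclm (chr3:122245393-122245461, plus strand): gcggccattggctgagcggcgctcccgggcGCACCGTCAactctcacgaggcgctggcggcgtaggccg
Txnrd1 (chr10:82859084-82859152, plus strand): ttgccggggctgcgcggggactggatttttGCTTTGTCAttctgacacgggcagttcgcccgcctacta
G6pdx (chrX:74428899-74428967, minus strand): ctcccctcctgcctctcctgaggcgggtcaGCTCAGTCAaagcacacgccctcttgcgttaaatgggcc
Across the genes with a promoter, 39 of 181 called higher (21.5%) and 12 of 92 called lower (13%) held the core, against 17% of all tested genes. An AP-1 site, searched as TGANTCA on both strands, was in 9.39% of the genes called higher, 6.52% of those called lower and 5.88% of all. The 2 motifs can overlap, as they do in Pir, Procr and Htatip2, where TGACTCAGC or its reverse complement holds both. Most genes called higher had no match in this window, and a match is a description of letters, not of binding.

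Glutathione S-transferases couple glutathione to electrophiles. In this family 3 of 17 tested genes were called higher, 2 of them without the block, and none lower, and the median was 0.03. Gsta4, whose enzyme conjugates lipid aldehydes, was at 0.5, 1.98 and 1.51 CPM in mock vehicle and 0.834, 1.11 and 1.38 in mock DEM. Its T-N2G libraries held 15.1, 18.4 and 28.5 CPM in vehicle and 148, 167 and 216 under DEM. Each T-N2G library exceeded each mock library, the DEM group being highest, and the interaction was 3.39 ± 0.34 (10.5-fold, adjusted p = 6.36e-06). Gstm1 likewise rose from 17.4, 23.8 and 24.3 to 80.6, 120 and 108 CPM in T-N2G cells while its mock libraries stayed between 2.35 and 6.80 CPM, with an interaction of 2.61 ± 0.22 (adjusted p = 5.89e-07). The microsomal Mgst1 went from 0.688, 1.94 and 1.19 to 4.90, 6.46 and 6.97 CPM in T-N2G cells, and its mock libraries were at 0.1 to 1.02 CPM. Its interaction of 2.22 ± 0.54 (adjusted p = 0.0314) was lost in 7 of the 12 fits that left out 1 library and without the block (adjusted p = 1.00). Reads of this gene family can be split between similar members, so the values are uncertain to that extent.

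Quinone, epoxide, ester and carbonyl detoxification held 9 genes called higher of 29 tested and none lower, 3 of them without the block, with a median of 0.14. The 9 include Akr1c14, Aox1 and Ugt1a6a, which stayed under 2 CPM in every group. For these genes only T-N2G DEM had at least 10 fragments, the minimum count of the filter, in all its libraries. Nqo1, the quinone reductase that serves as a marker of Nrf2 activity, was at 2.35, 5.66 and 3.77 CPM in mock vehicle and 4.66, 7.49 and 5.09 in mock DEM, against 13.3, 14.2 and 20.2 in T-N2G vehicle and 87.2, 103 and 111 in T-N2G DEM. The groups of T-N2G cells did not overlap with each other or with the mock groups, and the interaction was 2.12 ± 0.25 (4.36-fold, adjusted p = 4.51e-05). DEM raised Nqo1 in mock cells too, by 0.54 on the log2 scale (adjusted p = 0.0446). Esd, an esterase that hydrolyses S-formylglutathione, rose from 133, 94.6 and 153 to 348, 281 and 409 CPM in T-N2G cells and was at 63.2 to 75.6 CPM in all mock libraries (interaction 1.53 ± 0.11, adjusted p = 5.84e-08). Ptgr1, a reductase of unsaturated aldehydes and ketones, fell in mock cells (log2 -0.36, adjusted p = 0.0081) and rose in T-N2G cells (log2 0.99, adjusted p = 1.64e-07), giving 1.35 ± 0.13 (adjusted p = 6.13e-06). The carbonyl reductase gene Cbr3 likewise fell in mock cells (log2 -0.42) and rose in T-N2G cells (0.57). Its interaction was 1.00 ± 0.15 (adjusted p = 0.000546, or 0.0551 without the block). Ugt1a6b, a glucuronosyltransferase, was at 0.302 to 1.04 CPM in mock libraries and rose to 2.68, 3.70 and 2.81 CPM in T-N2G DEM from 0.443, 0.948 and 1.1 in vehicle (interaction 2.53 ± 0.44, adjusted p = 0.00269, or 0.123 without the block). It shares most of its sequence with Ugt1a6a, which had 0, 0 and 0 fragments in mock DEM and 12, 30 and 22 in T-N2G DEM, so the split between the 2 genes is uncertain.

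**Figure D2:**
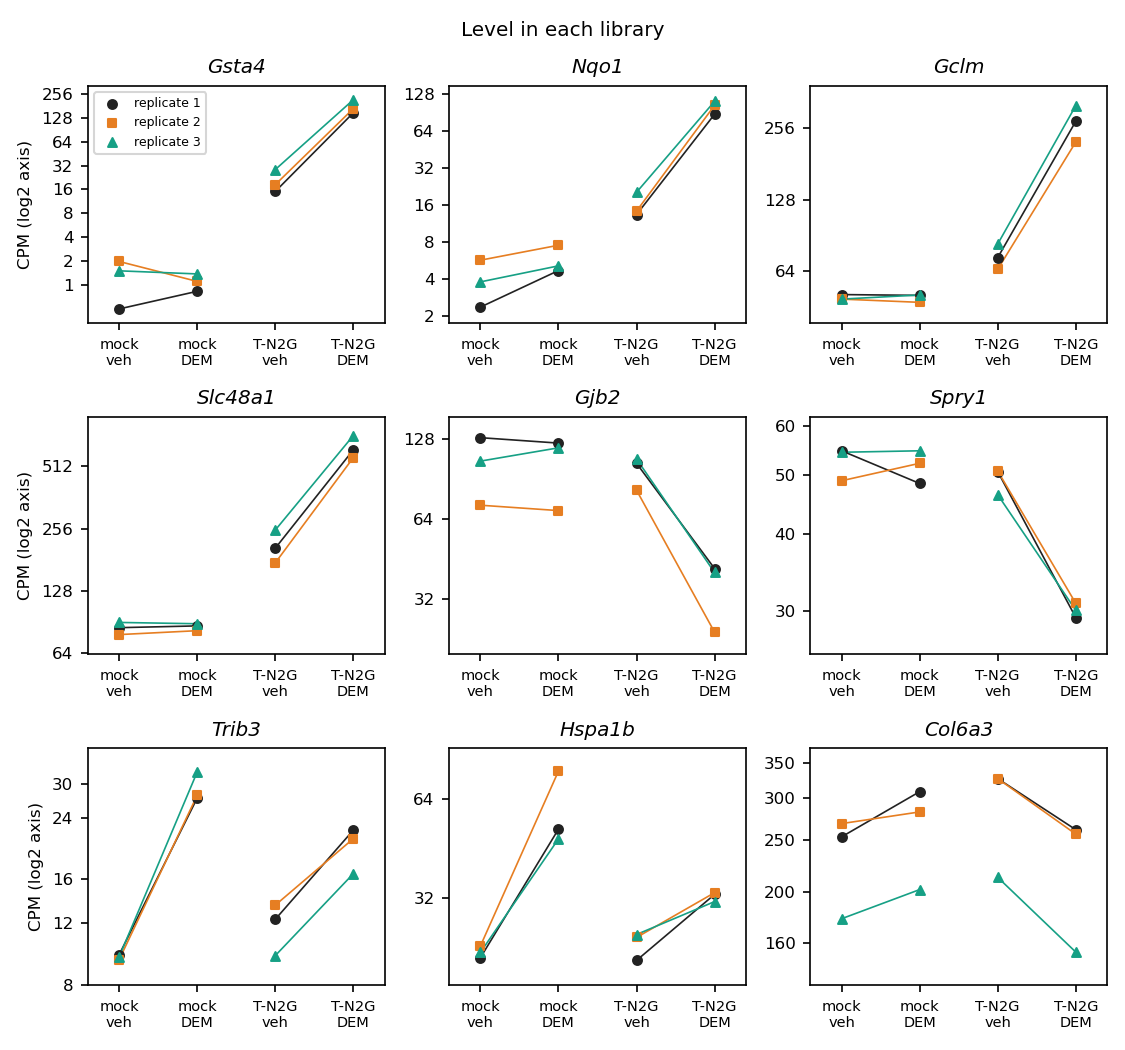
Level of 9 genes in each library, in CPM on a log2 axis, by group (mock vehicle, mock DEM, T-N2G vehicle, T-N2G DEM). Symbols and lines give the replicate number and join the vehicle and DEM libraries of one number. Gsta4, Nqo1, Gclm and Slc48a1 climb in all 3 T-N2G pairs, Gjb2 and Spry1 drop in these pairs and stay level on average in mock cells, and Trib3 and Hspa1b climb more steeply in mock cells.

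Thioredoxin, sulfiredoxin, glutaredoxin and peroxiredoxin genes, which reduce protein disulfides and peroxides, had 5 of 17 tested members called higher and 1 lower, with 4 and 0 of these without the block. Srxn1, the sulfiredoxin that repairs overoxidized peroxiredoxins, stood at 29.6, 33.2 and 32.4 CPM in mock vehicle and 32, 35.5 and 34.7 in mock DEM. It rose in T-N2G cells from 44.7, 40.9 and 52.5 to 207, 173 and 248 CPM, an interaction of 2.08 ± 0.12 (4.22-fold, adjusted p = 7.63e-09) with replicate values of 2.09, 1.97 and 2.13. Txnrd1, thioredoxin reductase, rose from 376, 262 and 360 to 952, 670 and 904 CPM in T-N2G cells (interaction 1.5 ± 0.10, adjusted p = 5.86e-08), and Prdx6 from 142, 93.3 and 136 to 341, 248 and 385 CPM (1.67 ± 0.16, adjusted p = 2.78e-06). Neither had a called DEM effect in mock cells. The member called lower was Txnip, a binder and inhibitor of thioredoxin, which fell in both populations and farther in T-N2G cells (log2 -0.47 in mock, -0.75 in T-N2G, interaction -0.28 ± 0.06, adjusted p = 0.0116). Its call was lost without T-N2G vehicle replicate 1 and without the block (adjusted p = 1.00).

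Catalase and superoxide dismutase remove hydrogen peroxide and superoxide. Cat rose from 75.1, 79.0 and 89.5 to 152, 151 and 183 CPM in T-N2G cells and lay between 64.6 and 75.9 CPM in all 6 mock libraries (interaction 1.03 ± 0.07, adjusted p = 5.63e-08). The interaction of the cytosolic Sod1 was 0.65 ± 0.07 (adjusted p = 1.97e-05). These were the 2 called members of 7 tested in the list of glutathione peroxidases, catalase and superoxide dismutases, with and without the block, and the median was 0.03.

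NADPH feeds the reductases above, and 5 of 13 tested genes of its supply and of the pentose phosphate pathway were called higher, all 5 also without the block, and none lower. Pgd, 6-phosphogluconate dehydrogenase, fell slightly under DEM in mock cells, from 98.3, 96.9 and 103 to 82.3, 86.0 and 90.1 CPM (adjusted p = 0.02), and rose from 156, 129 and 183 to 498, 440 and 582 CPM in T-N2G cells. The opposed movements gave an interaction of 1.91 ± 0.09 (3.76-fold, adjusted p = 1.11e-09). G6pdx, which opens the pathway, rose 1.74-fold in T-N2G cells, from 85.1, 76.5 and 97.8 to 146, 127 and 179 CPM (interaction 0.93 ± 0.10, adjusted p = 9.65e-06). Malic enzyme Me1 rose from 97.1, 86.7 and 89.8 to 175, 188 and 200 CPM (1.02 ± 0.11, adjusted p = 1.37e-05), with mock libraries at 45.4 to 59.1 CPM. Transketolase Tkt fell in mock cells (log2 -0.25) and rose in T-N2G cells (0.29), and its interaction was 0.54 ± 0.06 (adjusted p = 1.99e-05). The median of the 13 genes was 0.15, and 11 of them had a positive interaction.

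Genes of heme and iron handling had 8 of 24 tested members called higher, 5 of them without the block, and none lower. Slc48a1, which moves heme out of endolysosomes, stood between 78.8 and 90.2 CPM in the 6 mock libraries and rose from 206, 175 and 252 to 615, 564 and 721 CPM in T-N2G cells (interaction 1.57 ± 0.08, adjusted p = 2.25e-09). Slc40a1, the iron exporter ferroportin, was at 0.750, 3.16 and 1.98 CPM in mock vehicle and fell to 0.687, 1.25 and 1.04 in mock DEM (adjusted p = 0.0112). Its T-N2G libraries were at 10.3, 13.8 and 14.7 CPM in vehicle and 47.1, 89.8 and 67.1 under DEM. The interaction of 3.36 ± 0.31 (10.3-fold, adjusted p = 2.33e-06) joins a rise on one side to a fall on the other. Abcb6, a porphyrin transporter, also fell in mock cells (log2 -0.54, adjusted p = 0.00013) and rose in T-N2G cells (0.82, adjusted p = 2.21e-07), for an interaction of 1.36 ± 0.12 (adjusted p = 8.51e-07). The ferritin chain genes Fth1 and Ftl1, which store iron and have processed copies in the genome that make their counts uncertain, had interactions of 1.11 ± 0.09 (adjusted p = 2.37e-07) and 0.95 ± 0.07 (adjusted p = 7.35e-08), and neither had a called DEM effect in mock cells.

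Hmox1, whose enzyme breaks heme down to biliverdin, and Blvrb, 1 of 2 biliverdin reductase genes in the list, were singled out after their values were seen. Hmox1, heme oxygenase 1, answered DEM without T-N2G as well. It rose 2.04-fold in mock cells, from 978, 766 and 1246 to 1723, 2084 and 2192 CPM, and 4.10-fold in T-N2G cells, from 1437, 1207 and 1977 to 5688, 6021 and 6929 CPM, an interaction of 1.01 ± 0.14 (adjusted p = 0.000196, or 0.348 without the block). Blvrb had an interaction of 1.19 ± 0.16 (adjusted p = 0.000153, or 0.0703 without the block) and no called DEM effect in mock cells. The other biliverdin reductase gene, Blvra, had no called interaction (0.123, adjusted p = 0.746) and no called DEM effect in either population.

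Of 6 tested transporters for the efflux of drugs and conjugates 2 were called higher and none lower, with a median of 0.14. Abcc4 rose from 28.9, 26.8 and 30.9 to 79.3, 71.6 and 88.6 CPM in T-N2G cells and stayed between 21.8 and 24.3 CPM in mock cells (interaction 1.42 ± 0.10, adjusted p = 5.63e-08), and Abcc1 had 1.08 ± 0.08 (adjusted p = 3e-07). The other 4, among them Abcc10 (-0.181) and Abcg2 (0.0416), were not called (adjusted p = 0.785 and 0.917 for these 2). Of 13 tested genes in the list of other reported targets 5 were called higher, 4 of them without the block, and the median was 0.34. Pir, pirin, an iron-binding nuclear protein, had the largest interaction among genes with at least 2 CPM in 1 group, 3.42 ± 0.63 (10.7-fold, adjusted p = 0.0037). It was scarce, at 0.35, 0.566 and 0.189 CPM in mock cells given vehicle, 0.196, 0.0925 and 0.0863 in mock DEM, 1.87, 0.948 and 1.19 in T-N2G vehicle and 4.81, 4.92 and 4.97 in T-N2G DEM, and its call was lost without mock vehicle replicate 2. Gbe1, the glycogen branching enzyme, and Htatip2 had interactions of 1.48 ± 0.20 (adjusted p = 0.000282) and 1.27 ± 0.20 (adjusted p = 0.00101). Sqstm1, the autophagy receptor p62, rose in both populations, from 206, 242 and 237 to 246, 302 and 282 CPM in mock and from 208, 254 and 256 to 441, 489 and 516 CPM in T-N2G cells (interaction 0.74 ± 0.06, adjusted p = 2.62e-07, or 0.0647 without the block), and the lysosomal regulator gene Tfe3 did so as well (0.52 ± 0.06, adjusted p = 6.16e-05). The 2 vehicle groups of Sqstm1 overlapped, and the 2 DEM groups did not.

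Protein turnover showed smaller values. One of 20 autophagy genes was called higher, Gabarapl1, an Atg8 family member, at 0.70 ± 0.10 (adjusted p = 0.000605). Of 24 lysosomal genes 2 were called higher, Gla (0.43 ± 0.09, adjusted p = 0.0122) and Scarb2 (0.26 ± 0.06, adjusted p = 0.0265). Of 32 proteasome subunits 4 were called higher, with Psma5 at 0.35 ± 0.08 (adjusted p = 0.0143) the largest, and 29 had a positive interaction with a median of 0.10, beside 0.00 over all tested genes. DEM lowered Psma5 in mock cells (log2 -0.26, adjusted p = 0.00108) and its effect in T-N2G cells was not called (0.09, adjusted p = 0.182). Keap1, the inhibitor of Nrf2, had 0.33 ± 0.06 (adjusted p = 0.00566) and was the called member of 10 tested in the list of cap'n'collar factors, Bach and small Maf genes. No call in this paragraph was kept without the block (adjusted p between 0.503 for Keap1 and 1.00), and those of Gla and Scarb2 were lost in 2 and 10 of the 12 fits that left out 1 library, those of Psma5 in 5.

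Genes outside these lists also had positive interactions, some of them among the largest. Procr, the endothelial protein C receptor, rose from 8.46, 6.87 and 13.8 to 49.1, 30 and 62.5 CPM in T-N2G cells and was at 4.20 to 6.38 CPM in mock cells (interaction 2.05 ± 0.25, adjusted p = 6.16e-05, or 0.0783 without the block). Nid1, a basement membrane protein, rose from 1120, 975 and 1168 to 2510, 2205 and 2431 CPM against 653 to 762 CPM in mock libraries (1.24 ± 0.08, adjusted p = 1.75e-08). The signalling adaptor Pik3ap1 had 1.91 ± 0.33 (adjusted p = 0.00201) with all levels at or under 3.62 CPM. Ccdc88a, an actin-binding protein, rose from 199, 179 and 218 to 456, 406 and 495 CPM in T-N2G cells and less, though called, in mock cells (0.88 ± 0.08, adjusted p = 2.55e-06). Map7d2 (2.29 ± 0.48, adjusted p = 0.0109) and Shtn1 (1.98 ± 0.45, adjusted p = 0.0192), both linked to the cytoskeleton, had no library above 4.37 CPM. Their calls were lost without the block (adjusted p = 0.0941 and 0.109), without mock vehicle replicate 2, and for Shtn1 also without mock vehicle replicate 3, mock DEM replicates 1 and 2 or T-N2G DEM replicate 2.

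**Figure D3:**
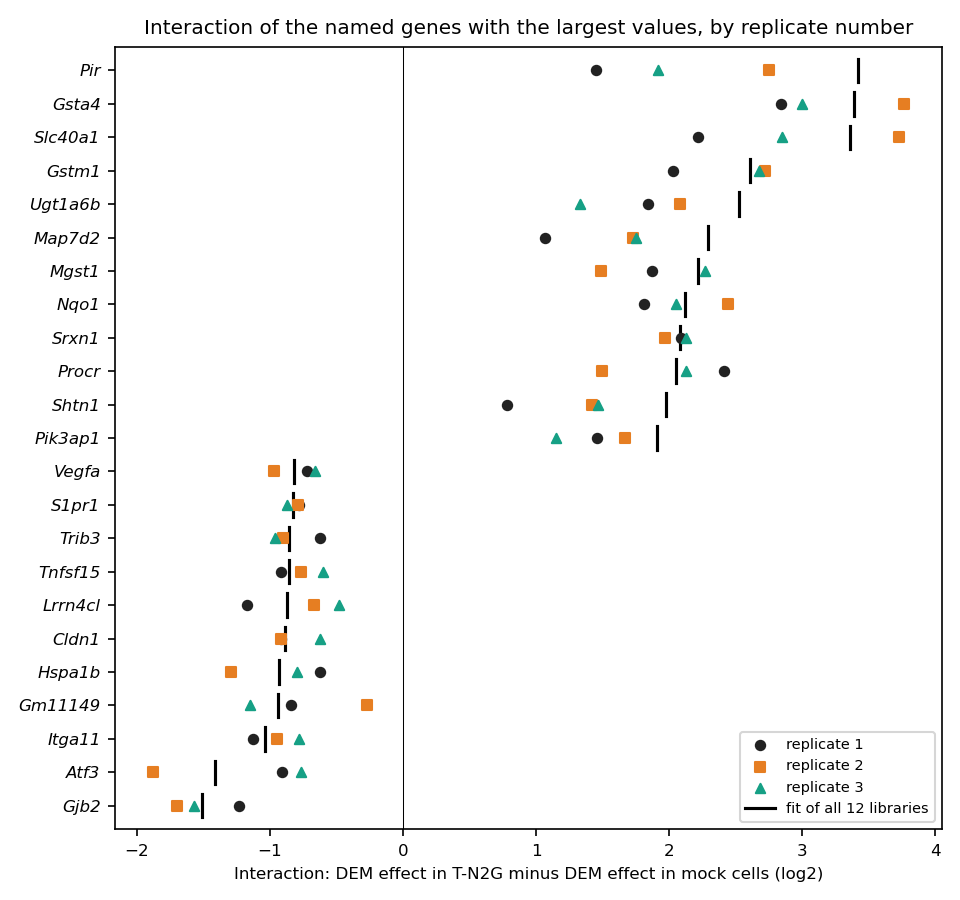
Interaction (x axis, log2) of the named genes with the largest values, 12 positive and 11 negative. Symbols are the values of replicates 1, 2 and 3, each computed from 4 libraries on log2(CPM + 0.5), and the black bar is the value from the fit of all 12 libraries. All symbols of a gene lie on one side of 0 because these genes were chosen for an equal sign in the 3 replicate numbers. The symbols of scarce genes such as Pir (1.45 to 2.75) lie below the fitted 3.42.

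The genes called higher fell into 5 classes by the DEM effects behind them, read from the same libraries. DEM effects themselves were called for 20.9% of genes higher and 21.9% lower in mock cells, and for 22.8% higher and 22.2% lower in T-N2G cells, so membership of a class is common in either population. Without the block these shares were 7.76% and 6.18% in mock cells and 10.1% and 7.55% in T-N2G cells. In 100 genes, Gclm, Slc48a1, Srxn1 and Nid1 among them, DEM raised the gene in T-N2G cells and had no called effect in mock cells. In 46 both effects were upward and the T-N2G effect larger, as for Gclc, Sqstm1, Ccdc88a and the neutral amino acid transporter Slc1a4. In another 46 the effects were opposed, down in mock and up in T-N2G cells, as for Pgd, Abcb6, Cyb5a and Cgnl1. Cyb5a, cytochrome b5, went from 37.7, 42.7 and 35.9 to 32.9, 30 and 27.4 CPM in mock and from 48.5, 53.3 and 48.7 to 105, 107 and 111 CPM in T-N2G cells (interaction 1.47 ± 0.09, adjusted p = 1.71e-08). Cgnl1, a junction protein, went from 123, 119 and 122 to 83.5, 85.7 and 88.1 CPM in mock and from 146, 145 and 186 to 244, 207 and 300 CPM in T-N2G cells (1.15 ± 0.10, adjusted p = 2.15e-06). Both genes have DEM groups that do not overlap their vehicle groups in either population.

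In 30 genes the positive interaction came from a fall in mock cells with no called change in T-N2G cells. Plxna4, a semaphorin receptor, fell from 28.9, 65.2 and 63.7 to 18.2, 36.4 and 36.8 CPM in mock cells and was at 40.6, 71.6 and 65.1 in T-N2G vehicle and 36.3, 66.8 and 70.3 in T-N2G DEM (interaction 0.73 ± 0.10, adjusted p = 0.000177). Its replicate 1 was low in all 4 groups. Pcyt1b (0.73 ± 0.12, adjusted p = 0.00177), a phosphatidylcholine synthesis enzyme, Serpinb9 (0.90 ± 0.16, adjusted p = 0.00256), a granzyme B inhibitor, and Maoa (0.39 ± 0.07, adjusted p = 0.0034), a monoamine oxidase, had the same form. In 5 genes both effects were downward and the mock effect larger, among them Sort1, sortilin (0.53 ± 0.10, adjusted p = 0.00335), and Tubb2b, a beta tubulin (0.39 ± 0.07, adjusted p = 0.00526). None of the 6 genes named in this paragraph was called without the block, where their adjusted p was 0.171 (Maoa), 0.185 (Tubb2b) or 1.00.

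Among the 122 genes called lower, 34 fell under DEM in T-N2G cells and had no called effect in mock cells. Gjb2, the gap junction protein connexin 26, had the most negative interaction. It stood at 130, 72.2 and 106 CPM in mock cells given vehicle, 124, 68.9 and 119 in mock DEM and 104, 82.3 and 108 in T-N2G vehicle, and at 41.6, 23.9 and 40.2 in T-N2G DEM. The T-N2G DEM libraries lay below the other 9, replicate 2 was lowest in every group, and the interaction was -1.51 ± 0.11 (2.85-fold lower, adjusted p = 2.01e-07, or 0.237 without the block). Spry1, Sprouty1, a feedback inhibitor of the ERK pathway, was at 48.4 to 54.7 CPM in the mock libraries and went from 50.6, 50.7 and 46.4 to 29.3, 30.9 and 30.1 CPM in T-N2G cells. Its interaction of -0.69 ± 0.09 (1.61-fold lower, adjusted p = 0.000128) kept its call without the block (adjusted p = 0.00903). It was the called member of 15 tested Sprouty, Dusp and Etv feedback genes of ERK, whose median was -0.36. Bcat1, a branched-chain aminotransferase (-0.45 ± 0.07, adjusted p = 0.00131, or 0.258 without the block), and Pdlim5, a cytoskeletal scaffold (-0.34 ± 0.06, adjusted p = 0.00163, or 1.00 without), were of the same class.

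In 49 of the genes called lower, DEM lowered both populations and T-N2G cells farther. Timp3, an inhibitor of matrix proteases, fell from 2224, 2349 and 3570 to 1442, 1440 and 2541 CPM in mock cells and from 1888, 2134 and 2944 to 791, 911 and 1260 CPM in T-N2G cells (interaction -0.63 ± 0.08, adjusted p = 6.16e-05). Replicate 3 was highest in all 4 groups, and the mock DEM and T-N2G vehicle ranges overlapped. S1pr1, a sphingosine 1-phosphate receptor, fell in T-N2G cells from 37.0, 49.8 and 43.0 to 17.3, 24.8 and 20.5 CPM and in mock cells from 47.4, 57.5 and 54.9 to 38.6, 50 and 48.5 CPM (-0.83 ± 0.08, adjusted p = 5.41e-06). Cd248, endosialin (-0.63 ± 0.07, adjusted p = 2.29e-05), Pcdh19, a protocadherin (-0.54 ± 0.07, adjusted p = 0.000261), and Itga11, a collagen-binding integrin (-1.04 ± 0.18, adjusted p = 0.00218), behaved alike. Cldn1 (-0.89 ± 0.21, adjusted p = 0.0295) and Tnfsf15 (-0.86 ± 0.21, adjusted p = 0.0326) were also in this class, and their calls were lost in 8 of the 12 fits that left out 1 library. Claudin 1 RNA was lower in T-N2G than in mock cells before DEM, at 8.56, 17.5 and 7.26 against 15.8, 32.9 and 24.3 CPM, and on the linear CPM scale its interaction had the other sign (0.505). Without the block the adjusted p was 0.218 for S1pr1 and 1.00 for the other 6 genes.

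Genes of the integrated stress response, which the transcription factor Atf4 activates when amino acids run short or proteins misfold, mostly had negative interactions. Of 30 tested genes 8 were called lower and 1 higher, with a median of -0.27 and 4 positive values, while the median DEM effect of the list was 0.43 in mock and 0.19 in T-N2G cells. Trib3, a pseudokinase, rose under DEM from 9.75, 9.44 and 9.62 to 27.3, 27.8 and 32.4 CPM in mock cells and from 12.3, 13.5 and 9.69 to 22.1, 20.9 and 16.6 CPM in T-N2G cells. The mock DEM libraries lay above all others, and the interaction was -0.86 ± 0.16 (1.81-fold lower, adjusted p = 0.00555, or 0.123 without the block). Chac1, which degrades glutathione, rose from 8.50, 8.73 and 8.68 to 18.6, 22.1 and 20.1 CPM in mock and from 8.46, 11.3 and 7.97 to 12.8, 13.8 and 10.8 CPM in T-N2G cells (-0.80 ± 0.14, adjusted p = 0.00201, or 0.182 without). Atf3 was scarce, at 3.20, 3.07 and 3.54 CPM in mock cells given vehicle, 4.81, 9.48 and 4.88 in mock DEM, 2.56, 2.75 and 2.63 in T-N2G vehicle and 1.83, 1.97 and 1.94 in T-N2G DEM. Replicate 2 of mock DEM stood apart, and the interaction of -1.41 ± 0.30 (adjusted p = 0.0131, or 0.2 without the block) lost its call without mock vehicle replicate 2, T-N2G vehicle replicate 1 or 3 or T-N2G DEM replicate 2. Ddit4, an mTOR inhibitor, rose in mock cells (log2 0.46) and fell in T-N2G cells (-0.22), for -0.68 ± 0.11 (adjusted p = 0.00177), and the cationic amino acid transporter Slc7a1 had -0.35 ± 0.06 (adjusted p = 0.00186). Neither was called without the block (adjusted p = 1.00 and 0.998). The member called higher was Slc1a4, at 0.77 ± 0.08 (adjusted p = 5.46e-06, or 0.011 without).

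Further members of this list were singled out after their values were seen. Atf4 itself rose in both populations (log2 0.42 in mock, 0.18 in T-N2G) and had an interaction of -0.24 ± 0.06 (adjusted p = 0.0242, or 1.00 without the block), a call lost in 6 of the 12 fits that left out 1 library. Ddit3, which encodes Chop, had -0.54 ± 0.14 (adjusted p = 0.0545) and asparagine synthetase Asns -0.20 ± 0.07 (adjusted p = 0.137), neither called.

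The composite site of Atf4 and C/EBP factors was searched as TGATGCAA on both strands of the same promoters. It was present in 5 of 92 genes called lower (5.43%), 3 of 181 called higher (1.66%) and 0.706% of all tested genes, and these few genes carry no test. The windows of 3 genes called lower and of Slc7a11, which was called higher, show that the site occurs on both sides. That of Slc7a11 holds a second match, in lower case. Capitals mark the match, which reads TTGCATCA where it lies on the other strand.
Atf3 (chr1:191183406-191183473, minus strand): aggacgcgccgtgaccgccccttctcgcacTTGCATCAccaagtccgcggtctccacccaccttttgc
Chac1 (chr2:119351019-119351086, plus strand): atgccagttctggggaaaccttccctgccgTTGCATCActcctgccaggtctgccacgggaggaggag
Herpud1 (chr8:94386287-94386354, plus strand): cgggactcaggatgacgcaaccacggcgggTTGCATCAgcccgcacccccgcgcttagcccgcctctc
Slc7a11 (chr3:50443642-50443709, minus strand): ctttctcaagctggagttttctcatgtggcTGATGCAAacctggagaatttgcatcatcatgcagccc
Herpud1, an endoplasmic reticulum protein that takes part in protein degradation, was the called gene of 21 tested in folding and the unfolded protein response. It rose from 73.8, 77.1 and 82.3 to 119, 113 and 115 CPM in mock cells and stood at 73.9, 83.1 and 78.6 in T-N2G vehicle and 85.2, 86.7 and 81.3 in T-N2G DEM. The mock DEM libraries lay above the other 9. Its interaction was -0.47 ± 0.07 (adjusted p = 0.000826) and was called without the block too (adjusted p = 0.0426). The median of the 21 genes was -0.1, with 2 positive values. Of 20 tested cytosolic tRNA synthetase genes, whose median was -0.1 with 1 positive value, Sars was called lower (-0.21 ± 0.05, adjusted p = 0.0468). The call of Sars was kept in 1 of the 12 fits that left out 1 library and not without the block (adjusted p = 1.00).

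Cytosolic heat shock genes encode chaperones and their partners. Of 20 tested members 3 were called lower and none higher, with a median of -0.05 and 9 positive values, among them Hsph1 (0.056) and Bag3 (0.127), which were not called (adjusted p = 0.883 and 0.579). Hspa1b rose from 21.1, 22.9 and 21.9 to 51.7, 77.5 and 48.3 CPM in mock cells and from 20.7, 24.3 and 24.8 to 32.8, 33.2 and 31.2 CPM in T-N2G cells. The 2 DEM groups did not overlap, and the interaction was -0.93 ± 0.15 (1.91-fold lower, adjusted p = 0.00146). Its near-identical neighbour Hspa1a had -0.76 ± 0.19 (adjusted p = 0.04), and the split of reads between the 2 is uncertain. The small heat shock gene Hspb1 had -0.56 ± 0.12 (adjusted p = 0.015). None of these 3 genes was called without the block (adjusted p = 0.123, 0.658 and 0.638 in this order). Hspb1 also lost its call without mock vehicle replicate 2, T-N2G vehicle replicate 3 or T-N2G DEM replicate 3, and Hspa1a kept its call in 1 of 12 such fits.

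Immediate early genes, transcription factors and regulators that respond within minutes to growth factors and stress, had 6 of 26 tested members called lower and none higher, and the median was -0.26. Junb was at 40.1 to 45.3 CPM in the mock libraries and fell from 38.6, 41.9 and 36.0 to 30.4, 26.4 and 27.8 CPM in T-N2G cells (interaction -0.53 ± 0.10, adjusted p = 0.00381). Jun fell from 124, 101 and 132 to 96.7, 64.4 and 86.6 CPM in T-N2G cells (-0.51 ± 0.10, adjusted p = 0.00549) with mock libraries at 102 to 126 CPM. Klf4 fell in both populations (-0.43 ± 0.08, adjusted p = 0.00662). Dusp1, a phosphatase that inactivates MAP kinases, rose in mock cells from 33.6, 22.3 and 34.0 to 46.1, 49.3 and 48.8 CPM and had no called effect in T-N2G cells (-0.70 ± 0.15, adjusted p = 0.0118). Its call was lost without mock vehicle replicate 2, T-N2G vehicle replicate 1 or 3 or T-N2G DEM replicate 1. Without the block the adjusted p values were 0.0941 for Junb, 1.00 for Jun and Klf4 and 0.984 for Dusp1. Vegfa, the vascular growth factor, had a form like Dusp1, rising in mock cells from 12.0, 10.7 and 11.9 to 22.7, 25.9 and 20.3 CPM while T-N2G libraries lay between 15.2 and 23 CPM (-0.82 ± 0.16, adjusted p = 0.00661, or 0.176 without the block).

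Collagen genes encode structural proteins of the extracellular matrix. Of 17 tested members 4 were called lower and none higher, with a median of -0.19 and 5 positive values. Nid1, a matrix gene outside this list, was called in the other direction (1.24, given above), also without the block (adjusted p = 0.000306). Col1a1 fell from 4030, 4307 and 3867 to 3603, 3676 and 3345 CPM in mock cells and from 3835, 4390 and 3456 to 2710, 2935 and 2383 CPM in T-N2G cells (interaction -0.34 ± 0.06, adjusted p = 0.00381). The T-N2G DEM libraries lay below the other 9. Col6a3 rose in mock cells from 254, 269 and 178 to 309, 283 and 202 CPM and fell in T-N2G cells from 327, 327 and 213 to 262, 257 and 154 CPM (-0.55 ± 0.07, adjusted p = 7.15e-05). Replicate 3 was lowest in each group, so the groups overlap and the opposed directions appear within the replicate numbers. Col5a1 had -0.40 ± 0.08 (adjusted p = 0.00601) and Col1a2 -0.26 ± 0.06 (adjusted p = 0.0147), the latter not called without T-N2G vehicle replicate 1 or 2. Of 10 tested fibroblast markers 3 were called lower, Col1a1, Col1a2 and Fn1, and the summed fibroblast markers spanned 11820 to 14778 CPM in T-N2G DEM against 13809 to 16741 in mock DEM. The part of this difference in the interaction of single matrix genes was not tested.

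Contractile genes that respond to TGF-beta and YAP had 4 of 18 tested members called lower and none higher, and all 18 had a negative interaction (median -0.24). Thbs1, thrombospondin 1, fell in both populations, from 4240, 3284 and 4093 to 2652, 2034 and 2961 CPM in mock and from 3515, 2805 and 2942 to 1594, 1355 and 1221 CPM in T-N2G cells (-0.54 ± 0.12, adjusted p = 0.0153). Cyr61, a matricellular protein gene, had -0.35 ± 0.08 (adjusted p = 0.0136), and Cnn2, calponin 2, -0.25 ± 0.06 (adjusted p = 0.0167). The myosin light chain gene Myl9 rose in mock cells (log2 0.37, adjusted p = 5.64e-05) and had no called effect in T-N2G cells (-0.01, adjusted p = 0.909), and its interaction was -0.38 ± 0.08 (adjusted p = 0.00744). In 13 of the genes called lower, DEM effects were called in opposite directions, up in mock and down in T-N2G cells. Among them were Col6a3, Csrp1 (-0.47 ± 0.05, adjusted p = 3.59e-05), which encodes a LIM protein, and Loxl3 (-0.40 ± 0.06, adjusted p = 0.000495), a lysyl oxidase gene. Csrp1 went from 191, 162 and 202 to 209, 194 and 231 CPM in mock and from 187, 168 and 209 to 156, 137 and 174 CPM in T-N2G cells. In 20 others called lower, DEM raised mock cells with no called change in T-N2G cells. Examples were Herpud1, Cspg4 (-0.33 ± 0.06, adjusted p = 0.00535), a proteoglycan, and Tgfb1i1 (-0.34 ± 0.06, adjusted p = 0.00335), a focal adhesion protein. None of the 4 collagen and 4 contractile genes called lower was called without the block (adjusted p = 1.00 for each), nor were Loxl3 (0.622), Csrp1 (0.787), Cspg4 and Tgfb1i1 (1.00 for both). The calls of Thbs1 and Cyr61 were also lost without mock vehicle replicate 2, and without T-N2G vehicle replicate 1 (Thbs1) or 3 (Cyr61), and that of Cnn2 without mock vehicle replicate 2, mock DEM replicate 3, T-N2G vehicle replicate 1 or T-N2G DEM replicate 2.

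**Figure D4:**
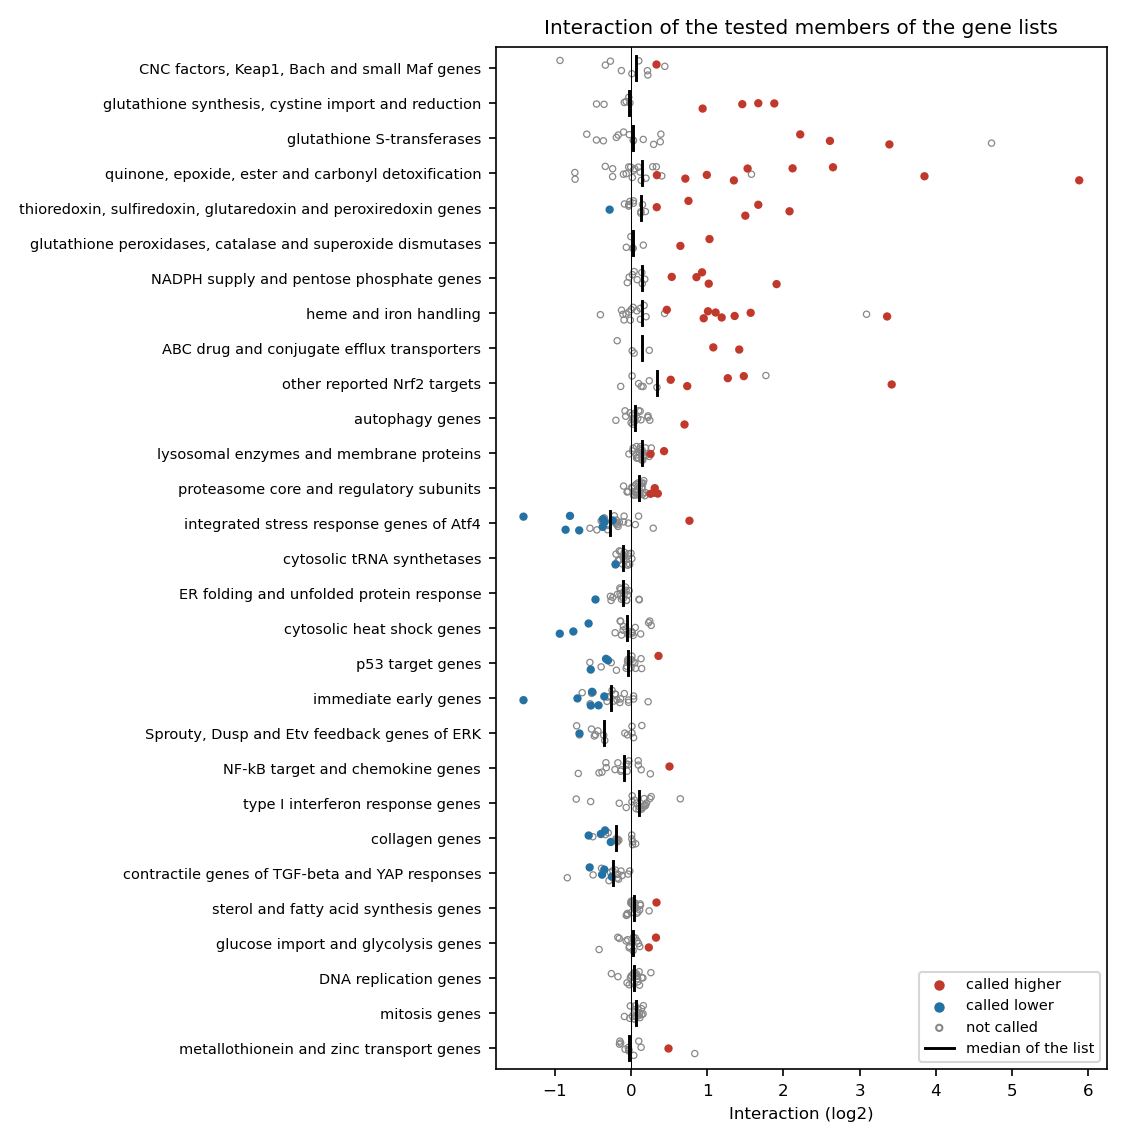
Interaction (x axis, log2) of the tested members of the 29 gene lists, 1 point per gene in each list that holds it. Red and blue points are genes called higher and lower, open points are not called, and the black bar is the median of the list. Called red points gather in the lists from glutathione synthesis to other reported Nrf2 targets, where most medians lie near 0. Called blue points gather in the integrated stress response, heat shock, p53, immediate early, collagen and contractile lists.

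Other lists had few calls. The p53 targets had 3 of 21 tested members called lower and 1 higher, Plk2 (-0.30 ± 0.06, adjusted p = 0.00892), Pmaip1 (-0.33 ± 0.07, adjusted p = 0.0152), Btg2 (-0.53 ± 0.13, adjusted p = 0.032) and, in the other direction, the apoptosis gene Bax (0.36 ± 0.08, adjusted p = 0.0167). Of the NF-kB target and chemokine genes, Csf1 was called higher (1 of 18), falling in mock cells and rising in T-N2G cells (0.51 ± 0.08, adjusted p = 0.000764). One of 12 metallothionein and zinc transport genes was called, Mt1 (0.49 ± 0.08, adjusted p = 0.00179), which rose in both populations. Of 15 glycolysis genes 2 were called higher (Gpi1, 0.33 ± 0.06, adjusted p = 0.00325, and Pkm, 0.23 ± 0.06, adjusted p = 0.0395). None of these calls was kept without the block (adjusted p between 0.434 and 1.00), and those of Bax, Btg2, Pkm and Pmaip1 were lost in 4 or more of the 12 fits that left out 1 library.

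Type I interferon response genes (21 tested), DNA replication genes (21) and mitosis genes (20) had no called member in edgeR with or without the block, in DESeq2 or in limma. Unadjusted p was under 0.05 for 2, 3 and 3 of them in edgeR with the block, and their medians were 0.11, 0.04 and 0.06. Rrm1, a ribonucleotide reductase subunit, fell under DEM in both populations (log2 -0.41 in mock, -0.26 in T-N2G) with an interaction of 0.16 ± 0.06 (adjusted p = 0.302). The proliferation marker Mki67 had an interaction of -0.09 ± 0.08 (adjusted p = 0.75), with all 12 libraries between 667 and 822 CPM. The 29 lists held 534 of the 12469 tested genes, and 58 of these 534 were called higher and 30 lower. Over all tested genes 227 (1.82%) were called higher and 122 (0.978%) lower. Most called genes lay outside the lists, as did most tested genes. The lists were chosen with earlier results of these data known.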

How the data were processed

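Polyadenylated RNA of 12 libraries, 4 groups of 3, was measured. Per the submitters' processing notes the authors used Cuffdiff 2.1.1, TopHat2 2.0.8b and bcl2fastq 2.16.0.10 with the mm9 build. The strand setting and the gene annotation are not given in the sources used here. The deposited table holds, per the file headers, raw fragments, an estimated count per gene and library (98.3% whole numbers), and FPKM, which the authors scaled by transcript length and library. Of its value columns 2 were not used. The key in the series design text tied table conditions to titles. A status of FAIL stood in 37 values of 17 genes, which were kept.

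Estimated counts were rounded and fitted with edgeR 4.0.16 (R 4.3.3) in 1 quasi-likelihood fit of all 12 libraries, with TMM factors (0.980 to 1.028), filterByExpr (minimum count 10, minimum total 15) and an additive replicate block. The block lowered the common coefficient of variation from 0.110 (8 residual degrees of freedom) to 0.0428 (6). The approximate standard error is the size of the log2 value divided by the square root of F. Titles carry the replicate numbers, whose meaning no label gives. The pairing by these numbers was part of the comparison as defined, and the correlations that follow only describe it. Deviations from group means had r between 0.424 and 0.72 (median 0.585) over the 18 library pairs of equal number. Over the 36 pairs of unequal number r was between -0.516 and 0.0583, and each of the 12 libraries matched its own number best. Deviations within a group sum to 0, so the values of equal and unequal number are not independent. DESeq2 1.42.0 and limma 3.58.1 on log2 FPKM served as alternatives.

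The gene lists, the members named, the tests and the alternatives were chosen with earlier results of these data known. Genes named are Nfe2l2, Maff, Mafg and Mafk, the 12 largest positive and 12 largest negative called values with at least 2 CPM and equal sign in 3 replicate numbers, and up to 4 called genes per list and per class by adjusted p. Not all of them are printed, and some results are not reported here. Another 6 genes were added after their values were seen. Promoters come from RefSeq (GRCm38.p6), a build other than that of the counts, and serve for sequence only. Intervals are not given, and depth limits the genes under 2 CPM most.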

Additional observations from a re-analysis of the deposited data

Results flagged for a closer look

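The DEM effect differed between mock and T-N2G cells, by the test of the difference itself, in 227 genes called higher and 122 called lower (edgeR, replicate block). Of the genes called higher, 46 had DEM effects called in opposite directions, lower in mock and higher in T-N2G cells. Of the genes called lower, 13 had them the other way round. Named genes that fell in mock and rose in T-N2G cells had interactions of 3.42 (Pir), 3.36 (Slc40a1), 1.98 (Shtn1), 1.91 (Pgd), 1.91 (Pik3ap1), 1.47 (Cyb5a), 1.36 (Abcb6), 1.35 (Ptgr1), 1.15 (Cgnl1), 1.00 (Cbr3), 0.85 (Krt14), 0.54 (Tkt), 0.51 (Csf1) and 0.31 (Psmd11). Named genes that rose in mock and fell in T-N2G cells had -0.68 (Ddit4), -0.55 (Col6a3), -0.47 (Csrp1) and -0.40 (Loxl3). The opposite directions rest on the fit with the block. Pir, Slc40a1, Shtn1 and Pik3ap1 were scarce in mock cells, so their falls there rest on low levels. Pik3ap1 had 26, 46 and 24 fragments in mock vehicle and 15, 20 and 19 in mock DEM. The interaction calls of Pir and Shtn1 were lost without mock vehicle replicate 2.

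Krt14, a keratin and the called member of the 2 tested epithelial markers, stood at 7.80, 5.62 and 22.9 CPM in mock cells given vehicle, 5.99, 4.16 and 16.1 in mock DEM, 7.67, 7.21 and 18.6 in T-N2G vehicle and 10.5, 8.48 and 25.5 in T-N2G DEM. Replicate 3 was highest in all 4 groups, the adjusted p was 0.00293 with the block and 1.00 without, and the cause was not tested.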

How the results depend on the processing

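With no replicate block, the interaction was called higher in 52 genes and lower in 2, and the DEM effect higher in 967 and lower in 770 genes of mock cells and higher in 1254 and lower in 941 of T-N2G cells. The larger spread without the pairing (coefficient of variation 0.110 against 0.0428) goes with these counts. A block for each pair of libraries of one number and population gave 337 higher and 243 lower. With no low-count filter 238 were higher and 186 lower, over more genes (17650). Without replicate 3 and with no replicate block together, an alternative added after the data were seen, 6 were higher and 0 lower (85 lower by an unadjusted edgeR p under 0.05).

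Leaving out replicates gave 127 to 225 higher and 56 to 129 lower, the lowest without replicate 1 (127 higher) and replicate 2 (56 lower). Those fits have fewer libraries. DESeq2, both limma fits on log2 FPKM, the filter at 1 CPM and scaling by library totals gave 187 to 219 higher and 95 to 132 lower. On the linear CPM scale 1 of the 117 called named genes changed direction, Cldn1, whose interaction became 0.505. Named genes that were not called were not compared in this way. The block by population, the 2 filters and library totals lost none of the called named genes, DESeq2 lost 6, limma 13 or 14, and the fit with no block 80. Among 12 fits that each left out 1 library, all 12 kept the call of 52 of the 67 named genes called higher and 32 of the 50 called lower.

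Depth limits scarce genes. Of the called genes 6 stayed under 2 CPM in every group, of which Ugt1a6a had no fragment in mock DEM and Arhgap20 had 1, 1 and 1, so their fitted values are no bounds.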

Other observations

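H19, an imprinted non-coding RNA chosen after its values were seen, stood at 384, 263 and 395 CPM in mock cells given vehicle, 442, 330 and 446 in mock DEM, 384, 345 and 592 in T-N2G vehicle and 296, 230 and 445 in T-N2G DEM. Its interaction was -0.69 ± 0.13 (edgeR adjusted p = 0.0053, or 1.00 without the block).

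Sox9, a chondrocyte factor among the cartilage and bone markers, was at 30.5 to 36.2 CPM in the mock libraries and fell in T-N2G cells from 32.8, 37.3 and 37.9 to 25.2, 26.4 and 22 CPM (interaction -0.55 ± 0.10, edgeR adjusted p = 0.00535, or 0.173 without the block). It was 1 of 3 tested markers of that list. Acta1, a muscle actin gene, Kdr, an endothelial receptor, and Pparg, an adipocyte regulator, had no called interaction (adjusted p = 0.853, 0.212 and 0.943).

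Akr1c14, Aox1 and Myb, examples of the called genes that stayed under 2 CPM in every group, are given by their fragments. Akr1c14 had 2, 4 and 8 fragments in mock vehicle and 0, 3 and 1 in mock DEM. Its T-N2G libraries held 4, 1 and 10 in vehicle and 10, 21 and 29 under DEM. Aox1, an aldehyde oxidase, had 6, 10 and 7 fragments in mock vehicle and 8, 2 and 5 in mock DEM. In T-N2G cells it had 7, 8 and 13 in vehicle and 35, 43 and 30 under DEM. Myb, whose positive interaction goes with a fall in mock cells, had 16, 18 and 11 fragments in mock vehicle and 4, 7 and 3 in mock DEM, against 14, 18 and 9 in T-N2G vehicle and 21, 21 and 6 in T-N2G DEM.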
